A study of Mus musculus with 13 samples.

Results

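The 7 genes described here write or read DNA methylation: the methyltransferases Dnmt1, Dnmt3a and Dnmt3b, the maintenance factor Uhrf1, and the methyl-CpG-binding domain genes Mbd1, Mbd2 and Mbd3. They were taken by name, 7 of the 22667 genes of an expression table and 232 of the 283765 splicing events of a second table. The tables came from 13 RNA-seq libraries of mouse cerebella on the C57BL/6 background. Wild-type libraries were made at postnatal day 1 (P1, libraries 8 and 9), P10 (libraries 5 and 6) and P30 (libraries 1, 2 and 3). Libraries of mice lacking Sam68, the RNA-binding splicing regulator encoded by Khdrbs1, were made at P1 (libraries 13, 14 and 15) and P10 (libraries 10, 11 and 12), with no knockout at P30. The labels call these mice Sam68 ko and do not say whether each library is a separate animal or a pool, so p-values measure the spread between these libraries.

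Methyl groups on CpG dinucleotides are set by Dnmt3a and Dnmt3b on unmethylated DNA and are copied by Dnmt1 onto the new strand after replication. Uhrf1 recognises the half-methylated DNA behind the replication fork and brings Dnmt1 to it. Mbd1 and Mbd2 bind methylated CpG, whereas Mbd3, a subunit of the NuRD histone deacetylase and nucleosome remodelling complex, binds it poorly in mammals. In the postnatal cerebellum, granule cell precursors divide in the external layer and then leave the cell cycle, and most neurons are postmitotic afterwards.

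Expression was deposited as cRPKM, a read density scaled for mappable length and library size, and splicing as percent spliced in (PSI), the share of junction reads that include a segment. The expression values rested on few reads, an estimated 0.0951 M reads (M, mega) in library 15 to 4.011 M in library 2, with 5 libraries (5, 11, 12, 13 and 15) under 0.5 M. The splicing table was deeper, with 7.83 to 13.66 M reads over simple exon junctions. All 7 genes passed the filter on low values, a mean of at least 1 cRPKM in any group, but Dnmt3b did so through the P10 wild types and both knockout groups alone. Khdrbs1 itself measured 4.22 to 8.50 cRPKM in the P1 knockouts against 56.45 and 74.40 in wild type, and 1.28 to 3.59 against 56.20 and 61.20 at P10. Markers of mature granule cells summed to 197.4 to 243.7 cRPKM at P1, 319.0 to 597.5 at P10 and 1649 to 1821 at P30. Granule cell precursor markers summed to 104.9 to 216.0 cRPKM in the P1 and P10 libraries and 41.27 to 52.46 at P30. In bulk tissue, fewer cells of a type and less RNA per cell cannot be told apart.

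Of the 7 genes, the maintenance pair Dnmt1 and Uhrf1 fell with age, and no gene of the 7 passed the test between knockout and wild type. Log2 differences below refer to log2(cRPKM + 1), averaged over a group and tested with limma over 14063 genes and called at a Benjamini-Hochberg adjusted p below 0.05. Between P10 and P30 in wild type 2 of the 7 were called, both lower, where 14.7% of all genes tested were called and 9.73% were called lower. Between P1 and P30 it was again 2 of 7, both lower, against 25.4% of all genes and 15.8% called lower. Between P1 and P10, 0 of 7 were called in wild type (4.05% of all genes; 0 of the 7 at an unadjusted p below 0.05, beside 16.3% of all genes), and 1 of 7 in the knockout (10.2%). The comparisons of P30 with P10 and with P1 share the P30 libraries. The median difference of the 7 was -0.45 for P30 against P10 and -0.45 for P30 against P1, beside -0.13 and -0.13 over all genes. Centring each library on its median moved the P30 against P10 differences of all genes by 0.17.

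**Figure D1:**
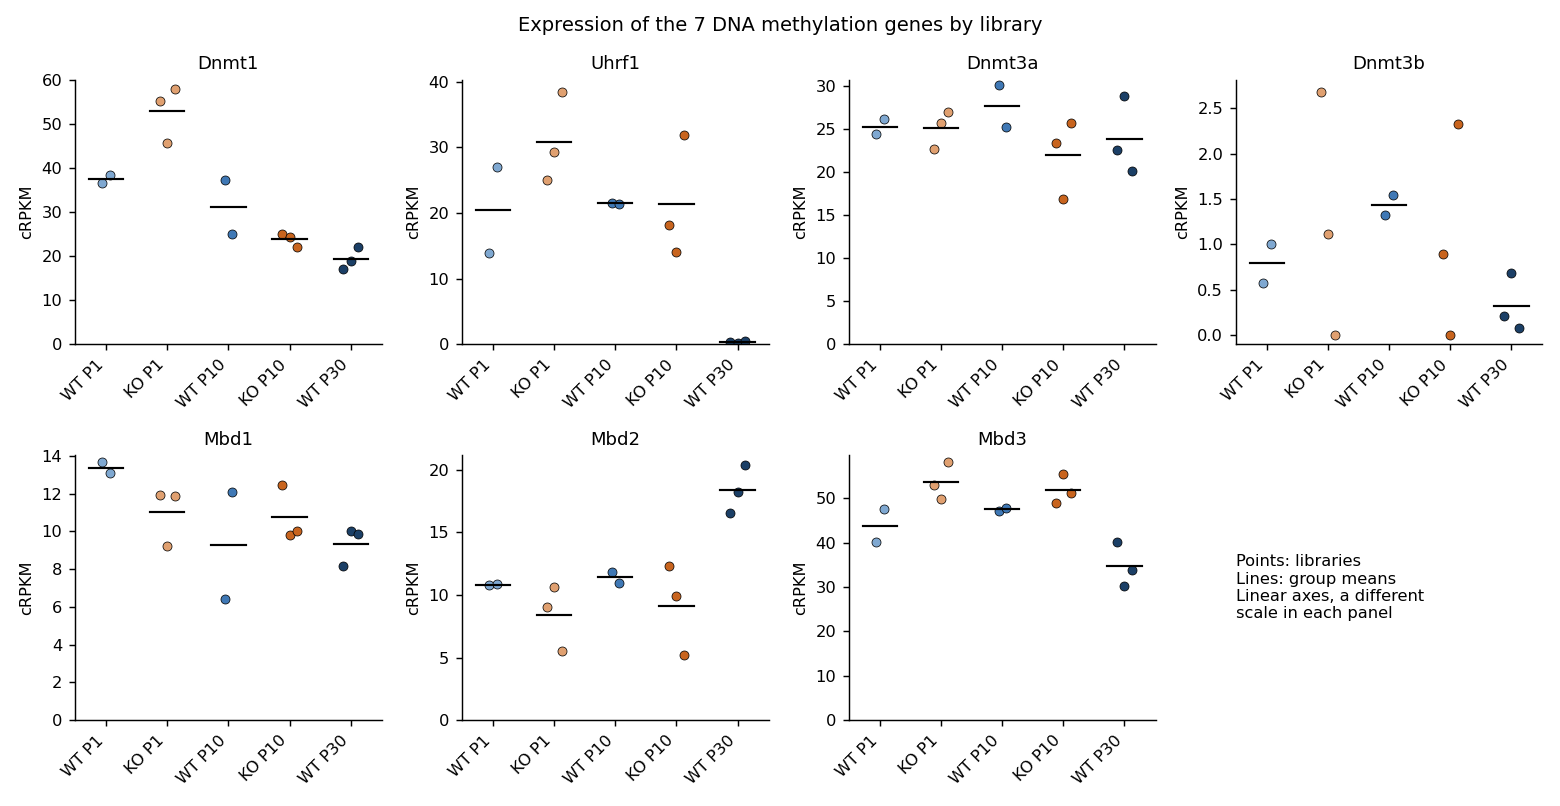
Expression of each gene in cRPKM (linear axes with a scale of their own in each panel) by group; a point is a library and a line the mean of a group in which no library is listed at 0. Uhrf1 lies between 0.21 and 0.47 cRPKM in the 3 P30 libraries and at 13.88 or more in the others, and Mbd2 is highest at P30.

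Uhrf1 showed the largest difference of the 7. Its level was 13.88 and 27.09 cRPKM in the P1 wild types, 21.54 and 21.43 at P10, and 0.38, 0.21 and 0.47 at P30. The knockouts measured 25.03, 29.27 and 38.40 cRPKM at P1 and 18.25, 14 and 31.82 at P10. Every P30 library thus lay far below every younger one (34.9% of all genes were lower at P30 than at P10 without overlap, and 38.7% lower than at P1), on an estimated 3, 3 and 5 reads, while the P1 and P10 groups overlapped. The log2 difference was -4.06 for P30 against P10 (SE 0.35; limma, adjusted p = 1.81e-05) and -3.92 for P30 against P1 (SE 0.35; adjusted p = 9.32e-06). Its size depends on the pseudocount, and the P30 against P10 value ran from -5.62 to -2.31 over all 24 alternatives, each of which kept the call. Junction reads of the splicing table, scaled per M junction reads of a library, were also lowest at P30, with 0.3, 0.4 and 0.6 reads per M at P30 and 29.3 to 69.5 in the other libraries.

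The start region of Uhrf1 is shown because Uhrf1 had the largest difference of the 7 genes. RefSeq (GRCm38.p6) lists 2 starts, and the window before the second start, chr17:56304063-56304312 on the plus strand, covers 250 bases that hold no annotated exon. Capitals mark an E2F-type word, of the kind found before genes of DNA replication, beginning 185 bases before the start, and the CCAAT words at 150 and 107 bases.
Uhrf1 start 2: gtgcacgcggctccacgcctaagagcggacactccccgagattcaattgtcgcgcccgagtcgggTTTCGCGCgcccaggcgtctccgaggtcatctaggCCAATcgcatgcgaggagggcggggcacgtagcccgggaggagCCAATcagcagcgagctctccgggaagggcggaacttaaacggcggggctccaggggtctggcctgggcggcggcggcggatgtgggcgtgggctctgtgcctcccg
The words searched on both strands were TTTCCCGC, TTTCGCGC, TTTGCCGC, TTTGGCGC and CCAAT, and the matches do not overlap here. Of 32851 windows of this length, 1.9% hold an E2F-type word, 33.8% hold CCAAT and 0.7% hold both. Of the 10 windows listed for 5 of the 7 genes, only 1 other holds an E2F-type word, the window before the third Dnmt1 start. There the word begins at 219 bases and CCAAT begins at 236, 233 and 32. Unlike the Uhrf1 window, that window overlaps an annotated Dnmt1 exon. Its CCAAT matches at 236 and 233 overlap each other on opposite strands. A match is a string of letters in a window and no evidence of binding.

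Genes of the cell cycle were also lower at P30. Of 25 proliferation genes, 24 were called lower at P30 against P10, with a median difference of -2.52, and 24 were called lower against P1. Over all genes, 9.73% and 15.8% were called lower in these comparisons. The 25 summed to 354.7 to 705.2 cRPKM in the P1 and P10 libraries and to 47.94 to 49.24 at P30. Ccne1, a cyclin of S-phase entry, was the exception in both, at -0.34 against P10 (adjusted p = 0.536) and -0.45 against P1 (adjusted p = 0.324), and is named after its value was seen. Library 8, the lower P1 wild type for Uhrf1, also had the lowest proliferation sum, 354.7 against 606.1 in library 9, and the lowest precursor sum of the P1 and P10 libraries. The part of cell numbers in the fall of Uhrf1 was not tested. Genes whose profiles over the 13 libraries lay near that of Uhrf1, by the root mean square difference of centred log2 values, included Mex3a (0.238), Tk1 (0.261) and Lmnb1 (0.325).

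**Figure D2:**
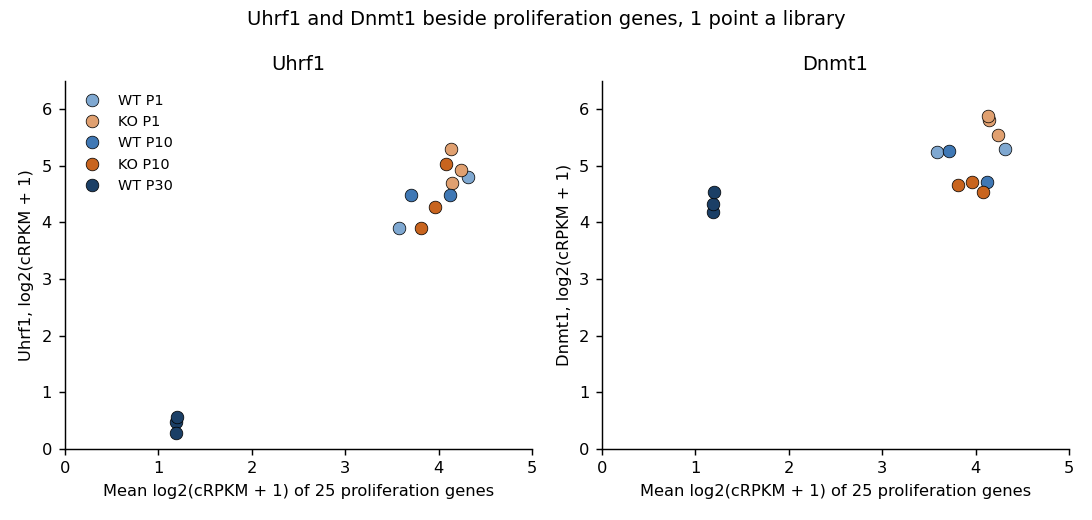
Level of Uhrf1 (left) and Dnmt1 (right), as log2(cRPKM + 1), against the mean log2(cRPKM + 1) of 25 proliferation genes; a point is a library. The P30 libraries stand alone at 1.19 to 1.2 on the horizontal axis, with Uhrf1 near 0 and Dnmt1 at levels equal to 17.18 to 22.21 cRPKM.

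Dnmt1 was lower at P30 but remained well expressed. Its level was 36.71 and 38.40 cRPKM in the P1 wild types, 37.34 and 25.14 at P10, and 17.18, 18.99 and 22.21 at P30. The knockouts measured 55.31, 45.80 and 58.09 cRPKM at P1 and 25.12, 24.42 and 22.21 at P10. The P30 libraries lay below every wild-type library of the other ages. Of all genes, 34.9% were lower than at P10 without overlap and 38.7% lower than at P1. The log2 difference was -0.92 for P30 against P1 (SE 0.19; limma, adjusted p = 0.00398), which held in all 24 alternatives, and -0.64 against P10 (SE 0.19; adjusted p = 0.0464). The latter call was lost in 15 of 24 alternatives. It was lost when library 1, 2, 3, 5, 8, 9, 10, 11 or 13 was left out, and without library 5 the difference was -0.36 (adjusted p = 0.365). From junction reads, the difference between P30 and P10 was -0.60 (SE 0.12; adjusted p = 0.00205), with 205.7, 210.2 and 194.6 reads per M at P30 against 352.0 and 272.7. In the knockout Dnmt1 fell between P1 and P10, by 1.11 on the log2 scale (SE 0.17; adjusted p = 0.00213), and the 2 groups did not overlap (12.3% of all genes were lower without overlap). Without the 5 libraries under 0.5 M reads, where 1 knockout library is left at each age, that difference was -0.84 (adjusted p = 0.106). In wild type the difference between the same ages was -0.28 (SE 0.21; adjusted p = 0.59) from cRPKM and -0.48 (SE 0.14; adjusted p = 0.0249) from junction reads. The nearest profiles to Dnmt1 were those of Slc22a23 (0.163), Clasp1 (0.18), Acaca (0.187) and Pcnxl3 (0.189).

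The de novo enzymes differed in level. Dnmt3a ranged from 16.80 to 30.01 cRPKM over the 13 libraries, with 24.39 and 26.11 in the P1 wild types, 30.01 and 25.21 at P10 and 22.50, 28.76 and 20.15 at P30. Its log2 difference was -0.10 (95% interval -0.56 to 0.37) for P30 against P1 and -0.22 (-0.68 to 0.25) against P10. Dnmt3b was the lowest of the 7 in every group, by the group mean. It measured 0.58 and 1.01 cRPKM in the P1 wild types, 1.32 and 1.54 at P10, and 0.21, 0.69 and 0.08 at P30. The knockouts had 2.68, 1.11 and 0 at P1 and 0.89, 0 and 2.33 at P10. There 1 read is worth an estimated 2.435 cRPKM in library 15 and 0.553 in library 11, both listed at 0. Every P30 value rests on an estimated 12 reads or fewer, and the difference against P10 was -0.90 (SE 0.58; adjusted p = 0.366). Junction reads gave 3.7, 9.1 and 6.6 reads per M at P30 against 12.4 and 23.5 at P1 and 14.6 and 23.6 at P10. On that scale Dnmt3b was lower at P30 than at P10 by 1.46 (SE 0.37; adjusted p = 0.00693) and than at P1 by 1.35 (SE 0.37; adjusted p = 0.0076).

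Among the readers, Mbd2 was the one gene of the 7 that was highest at P30. It measured 10.77 and 10.88 cRPKM in the P1 wild types, 11.86 and 10.98 at P10, and 16.56, 18.24 and 20.39 at P30. The P30 values lay above all others, where 20.2% of all genes were higher than at P10 without overlap and 26.3% higher than at P1. The knockouts ranged from 5.22 to 12.30, with the lowest resting on an estimated 1 read in library 15 (5.49) and 3 reads in library 12 (5.22). The log2 difference against P1 was 0.71 (SE 0.33) and did not pass the test over all libraries (limma, adjusted p = 0.148). It passed without the 5 shallow libraries (0.71; adjusted p = 0.0117) and from junction reads, with 38.1, 30.4 and 39.5 reads per M at P30 against 24 and 20.5 at P1 (0.67; SE 0.19; adjusted p = 0.0109). The difference against P10 was 0.64 (adjusted p = 0.244), and 0.52 from junction reads (adjusted p = 0.047). The P10 knockouts had 34.8, 38.1 and 26.4 junction reads per M for Mbd2, so that libraries 10 and 11 lay within the range of P30.

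Mbd3 was the most abundant of the 7 per length in every group by its mean. It measured 40.08 and 47.62 cRPKM in the P1 wild types, 47.24 and 47.76 at P10, 40.20, 30.32 and 33.87 at P30, and 49.04 to 58.29 in the knockouts. P30 lay below P10 without overlap, as for 34.9% of all genes, by -0.45 on the log2 scale (SE 0.16, limma adjusted p = 0.0794). It overlapped P1. Mbd1 measured 13.66 and 13.08 cRPKM in the P1 wild types, 6.41 and 12.11 at P10, 8.19, 10 and 9.85 at P30 and 9.23 to 12.46 in the knockouts. Its difference between P30 and P1 was -0.48 (95% interval -1.07 to 0.11), and the low P10 value of library 5 rests on an estimated 8.8 reads.

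Junction reads, an alternative measure from the same libraries, called 4 of the 7 at P30 against P10, where they called 43.7% of 10144 genes. They called 5 of the 7 at P30 against P1 (57.1% of genes), 1 in wild type and 2 in the knockout between P1 and P10 (22.4% and 31.7%). One read may serve several events, and a gene with more listed exons gathers more reads.

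**Figure D3:**
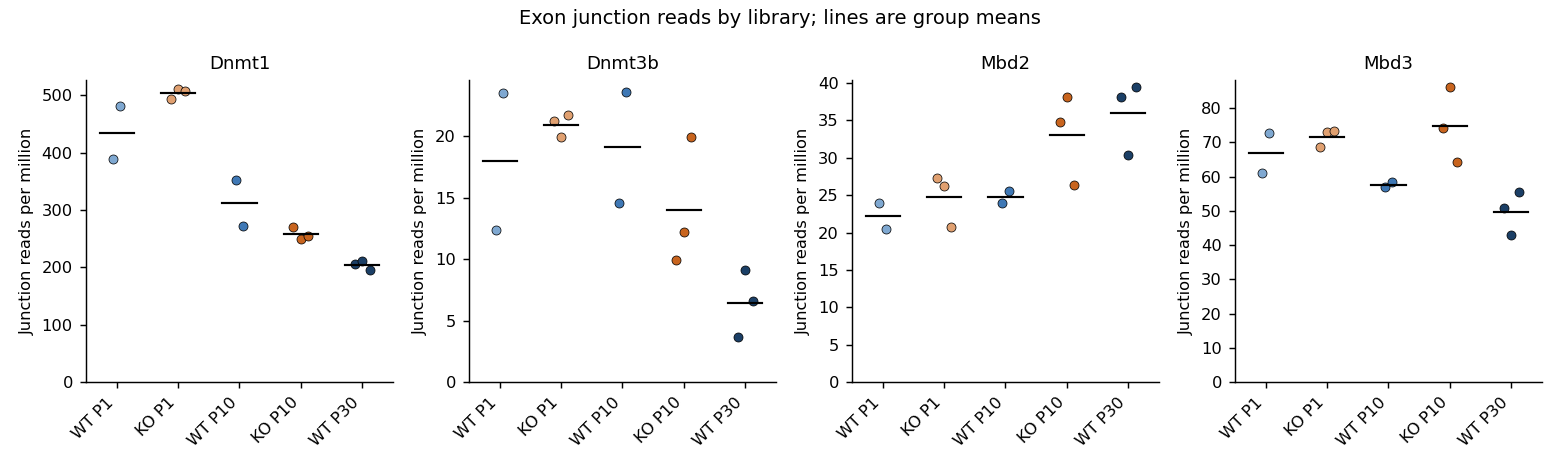
Exon junction reads per M (vertical axes from 0) of Dnmt1, Dnmt3b, Mbd2 and Mbd3 by group; a point is a library and a line a group mean. Dnmt1 and Dnmt3b are lowest at P30, at 194.6 to 210.2 and 3.7 to 9.1, and the P30 values of Mbd2 overlap those of the P10 knockouts.

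The order of levels within a group changed with age. In the P1 wild types it was Mbd3, Dnmt1, Dnmt3a, Uhrf1, Mbd1, Mbd2 and Dnmt3b, and the library values of Dnmt3a and Uhrf1 overlapped. At P30 it was Mbd3, Dnmt3a, Dnmt1, Mbd2, Mbd1, Uhrf1 and Dnmt3b. There Dnmt3a overlapped Dnmt1, Dnmt1 overlapped Mbd2, and Uhrf1 overlapped Dnmt3b. Mbd2 and Uhrf1 thus exchanged places between P1 and P30.

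Between knockout and wild type, 0 of the 7 genes were called at P1, where 0.0356% of all genes were called, and 0 of 7 at P10 (0.00711%). At an unadjusted p below 0.05 it was 1 of 7 at P1 and 0 at P10 with limma, beside 6.78% and 5.32% of all genes, and 0 were called from junction reads at either age (0.0296% of genes at each). At P10 the junction reads gave an unadjusted p below 0.05 for Dnmt3a (-0.70; adjusted p = 0.283) and Mbd3 (0.36; adjusted p = 0.283), as for 15.6% of genes. The 95% intervals reached from 0.06 to 0.91 at P1 and from -0.77 to 0.08 at P10 for Dnmt1, and from -0.48 to 0.46 at P1 and from -0.80 to 0.13 at P10 for Dnmt3a. At P1 the 3 knockout values of Dnmt1 lay above both wild types, by 0.48 on the log2 scale (SE 0.19; unadjusted p = 0.0294, adjusted p = 0.72), and 7.89% of all genes were higher without overlap. At P10 they lay below both, by -0.35 (SE 0.19, limma adjusted p = 0.891), where 10.4% of genes were lower without overlap. The nearest libraries there, knockout library 10 and wild-type library 6, measured 25.12 and 25.14 cRPKM. Mbd3 was higher without overlap in the knockout at both ages, by 0.29 (SE 0.16; adjusted p = 0.735) at P1 and 0.13 (SE 0.16; adjusted p = 0.946) at P10, where 8.59% of genes were higher without overlap. Mbd1 and Mbd2 were lower without overlap at P1, as were 10.6% of genes. In the test of whether the knockout effect differed between the ages, 0 of the 7 were called (0.0142% of all genes; 0% from junction reads), with Dnmt1 alone at an unadjusted p below 0.05, as were 5.18% of all genes. Uhrf1 differed by 0.62 (95% interval -0.15 to 1.39) at P1 and -0.09 (-0.86 to 0.69) at P10. Mbd2 differed by -0.38 (-1.10 to 0.35) and -0.36 (-1.09 to 0.36), and Mbd1 by -0.27 (-0.86 to 0.32) and 0.25 (-0.34 to 0.84). Junction reads gave the other sign for Mbd2 at both ages (0.14 and 0.39) and for Mbd1 at both ages (0.01 and -0.19), none of them called. For Dnmt3b the intervals were widest, -1.11 to 1.41 at P1 and -1.66 to 0.87 at P10.

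**Figure D4:**
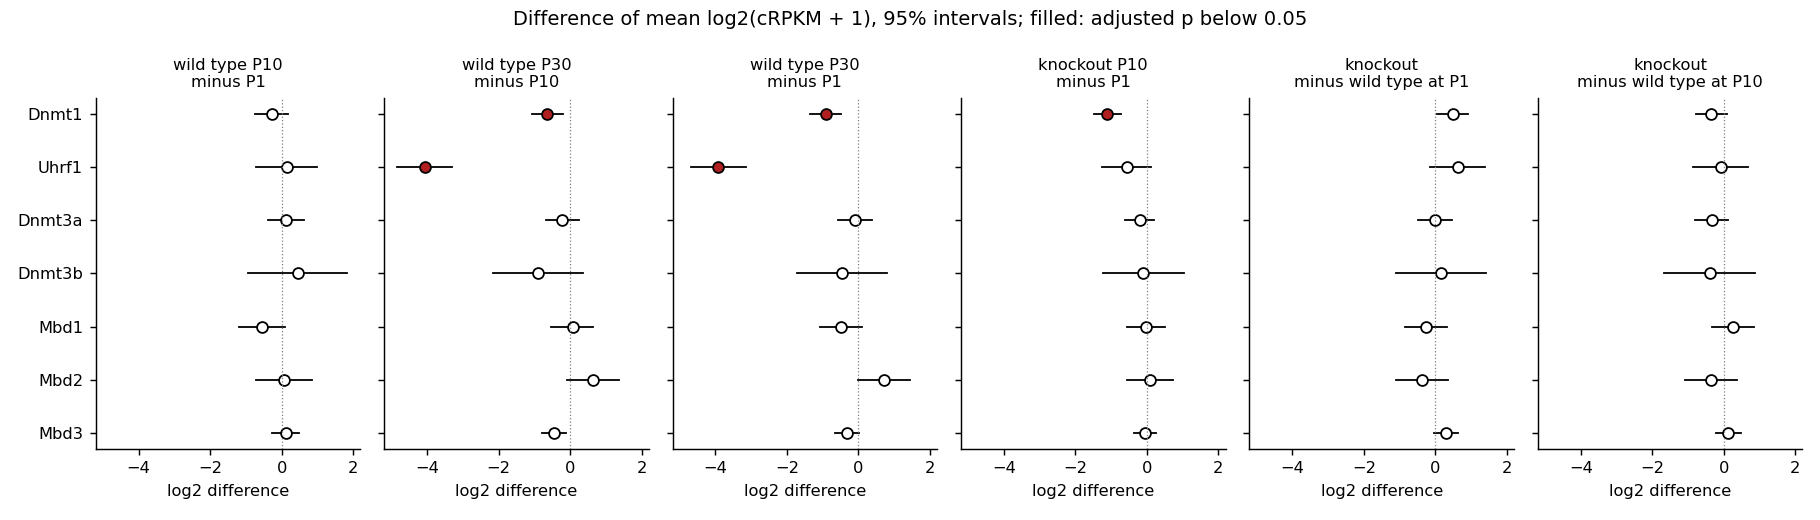
Difference of mean log2(cRPKM + 1) for each of the 7 genes (rows) in 6 comparisons (panels); lines are 95% intervals and filled points have an adjusted p below 0.05. The filled points are Dnmt1 and Uhrf1 in both comparisons with P30 and Dnmt1 between the knockout ages, all below 0.

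The wider DNA methylation pathway was followed through 56 further genes in 7 groups, of which 55 were tested, Atf7ip on 2 rows. At P30 against P10, 15 of the 56 rows were called lower and 2 higher, with a median difference of -0.55 beside -0.13 for all genes. Of all genes tested there, 9.73% were called lower and 14.7% in either direction, which also stands beside the counts of each group below. At P30 against P1 it was 19 lower and 4 higher (median -0.44), where 15.8% of all genes were called lower and 25.4% in either direction. Of the partners of maintenance methylation, 4 of 6 tested were called lower at P30 against P10. These were the DNA ligase Lig1 (-1.84; adjusted p = 0.000465), the polymerase clamp Pcna (-1.60; adjusted p = 0.000619), the chromatin remodeller Hells and its activator Cdca7. Of 12 NuRD subunits, 4 were called lower at P30 against P10 and 0 higher. The histone-binding Rbbp4 (-0.83; adjusted p = 0.00299) and the remodelling ATPase Chd3 (-0.94; adjusted p = 0.00527) led them. Chd5, another ATPase of the complex, was already lower at P10 than at P1 in wild type (-1.97; adjusted p = 0.0135) and in the knockout (-1.92; adjusted p = 0.00289). Of 12 genes of demethylation and base repair, the endonuclease Apex1 (-1.88; adjusted p = 0.000326) and the thymine glycosylase Tdg (-1.09; adjusted p = 0.00239) were called lower, and 0 higher. Of 9 other readers, Zfp57, a zinc finger protein of imprinted loci, was lower (-2.34; adjusted p = 0.000276), Trim28, its corepressor, was lower (-0.84; adjusted p = 0.0239) and Zbtb4 was higher (1.11; adjusted p = 0.00698). Among 9 genes listed under methyl donor supply, the mitochondrial serine hydroxymethyltransferase Shmt2 was lower (-0.93, limma adjusted p = 0.0194). Ahcyl1 was higher (0.65, limma adjusted p = 0.00818), and whether it takes part in that supply was not examined. Between knockout and wild type, 0 of the 56 rows were called at either age (0.0356% of all genes at P1 and 0.00711% at P10).

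Of the 232 splicing events of the 7 genes, 40 list no added length, and 32 of the rest were tested in at least 1 comparison: 12 of Mbd1, 11 of Dnmt3b, 5 of Dnmt1, 2 of Mbd3 and 1 each of Dnmt3a and Uhrf1. A tested event had a mean PSI of 5 to 95 and at least 10 reads in 2 or more libraries of both groups. A call required an adjusted p below 0.05 and a difference of 10 points of PSI. In wild type 1 of 23 member events was called at P30 against P10, where 2.39% of all events were called, and 1 of 22 at P30 against P1 (9% of all events). Both were the same Dnmt3b exon. Between P1 and P10, 0 of 24 were called in wild type (0.395% of events; 2 at an unadjusted p below 0.05, beside 11.3% of events) and 0 of 32 in the knockout (0.624%; 3 at an unadjusted p below 0.05, beside 10.9%). Between knockout and wild type it was 0 of 24 at P1 and 0 of 30 at P10 (0% of events each), with 0 and 2 at an unadjusted p below 0.05, beside 4.35% and 4.43% of events. With a prior that depends on reads, an alternative chosen after seeing the data, 0.0238% and 0.0304% of all events were called between genotypes and again 0 of the 7 genes.

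The Dnmt3b exon of 126 nt, chr2:153490988-153491113 of mm9, is shown because it is the one called event. In GENCODE M21 it is coding and adds 42 codons without a shift of frame.
Dnmt3b 126 nt exon: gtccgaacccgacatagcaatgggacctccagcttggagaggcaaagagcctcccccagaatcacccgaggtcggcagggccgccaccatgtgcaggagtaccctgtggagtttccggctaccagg
Its PSI was 42.9 and 74.1% in the P1 wild types on 15 and 47 reads, 80.0 and 72.7% at P10 on 27 and 57 reads, and 100% in all 3 P30 libraries. The P30 values rested on 8, 23 and 12 reads, and library 1, with 8 reads, was left out of the fit. The knockouts measured 85.4, 69.2 and 58.5% at P1 and 62.5, 62.2 and 70.4% at P10. No read skipped the exon at P30, and every younger library had skipping reads. The difference was 41.5 points for P30 against P1 (limma on the log2 odds, adjusted p = 0.00352), and it was 25.9 points without library 8 and 57.1 without library 9, with the call kept. Against P10 it was 23.6 points (adjusted p = 0.0348), and that call was lost without library 2, 3, 5, 6, 10, 11 or 14 (20 to 27.3 points, adjusted p up to 0.245). The intron that follows, of 529 nt, was retained at 77.8 to 100% in the P30 libraries, on 11 to 29 reads. Younger libraries with at least 10 reads had 50.0 to 73.3%. No tested comparison was a call, and P30 against P1 was not tested because 1 P1 wild type had 7 reads.

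Mbd3 uses a pair of donor sites 96 nt apart at chr10:79861867 (mm9), and the segment between them is coding, 32 codons, in GENCODE M21. It is shown because it is an in-frame coding choice measured on many reads. The capital GT is the donor dinucleotide used when the segment is left out.
Mbd3 96 nt segment: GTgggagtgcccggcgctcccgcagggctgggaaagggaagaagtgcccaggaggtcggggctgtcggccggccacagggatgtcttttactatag
The PSI of the donor that keeps the segment was 28.5 and 22.3% in the P1 wild types, 21.8 and 26.5% at P10, 36.1, 38.7 and 38.1% at P30, and 23.6 to 27.2% in the 6 knockouts. Each value rests on 447 to 857 reads, and the P30 libraries lay above all others, as they did for 7.52% of the 35199 events tested in both comparisons with P30. The differences were 13.5 points against P10 (adjusted p = 0.149) and 12.3 points against P1 (adjusted p = 0.0981), neither a call. With the prior that depends on reads they were calls, at an adjusted p of 0.0436 and 0.0323, where 2.93% and 9.87% of all events were called. The knockout differed from wild type by 1.4 points at P1 and 0.2 at P10. An Mbd3 intron of 76 nt, chr10:79855764-79855839, was retained at 14.5 to 16.3% at P30 and 20.1 to 34.0% in the other libraries, with no call, and 5.28% of the same events were lower at P30 in this way.

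Mbd1, on chromosome 18, had several exons of intermediate use. Its 115 nt exon was included at 81.4 and 90.5% in the P1 wild types, 67.5 and 79.1% at P10 and 73.3, 56.1 and 71.1% at P30, on 185 to 420 reads, and at 74.4 to 86.1% in the knockouts. The P30 against P1 difference was -19.1 points (adjusted p = 0.054), and a call at 0.0315 with the prior that depends on reads. The 165 nt exon measured 22.5 to 34.3% in the 10 libraries of P1 and P10 and 49.8, 42.6 and 45.5% at P30, again above all others (7.52% of events). That difference was 16.0 points against P1 (adjusted p = 0.0868) and 16.0 against P10 (adjusted p = 0.179). A 129 nt exon measured 91.8 and 94.9% in the P10 wild types and 99 to 100% at P30. That difference had an adjusted p of 0.0342 but was 6.3 points, under the 10 points a call requires. A 72 nt exon measured 35.4 to 40.7% in the P10 knockouts against 48.6 and 63.1% in wild type, -17.6 points at an unadjusted p of 0.0166 and an adjusted p of 1. The other event below 0.05 in that comparison was an Mbd1 acceptor pair 3 nt apart. Its PSI was 100% in the P10 knockouts on 27, 12 and 6 reads, of which library 12 with 6 reads was left out, and 73.7 and 88.2% in wild type on 19 and 17 reads. The difference was 19 points (limma, unadjusted p = 0.0114, adjusted p = 1).

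**Figure D5:**
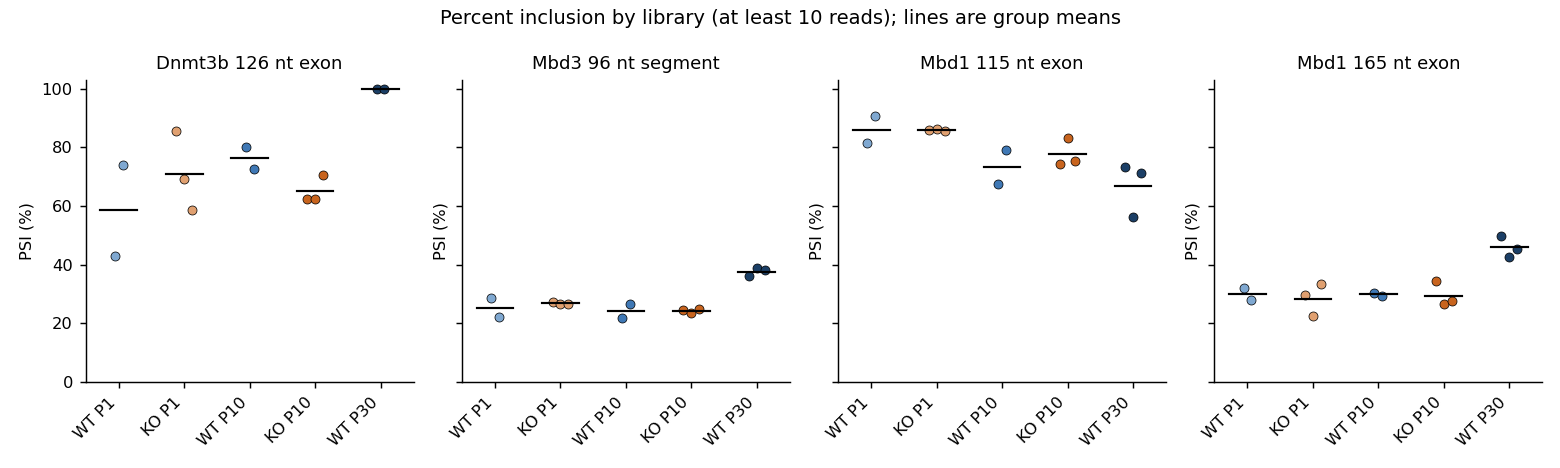
Percent inclusion (vertical axis, 0 to 100%) of 4 segments of Dnmt3b, Mbd3 and Mbd1 by group; a point is a library with at least 10 reads and a line a group mean. At P30 the Dnmt3b exon reaches 100% and the Mbd3 segment 36.1 to 38.7%, above every younger library.

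Dnmt1 showed a stable tandem acceptor. One exon (79 nt in its longer form, chr9:20744920-20744998 of mm9) starts at either of a pair of sites 3 nt apart. The 3 coding bases in capitals are thus kept or lost without a shift of frame. The phase of the reading frame was not examined, so the capitals need not be a codon by themselves. Both junctions are shown because the gene used them almost equally.
Dnmt1 junction with the 3 nt: gtgacaccctttCAGttgaaacttcac
Dnmt1 junction without the 3 nt: gtgacaccctttttgaaacttcac
The longer form made up 47.0 to 56.2% in the 13 libraries, on 141 to 401 reads. The differences over the 6 comparisons stayed within -1.4 and 3.1 points. A Dnmt1 intron of 228 nt, chr9:20728239-20728466, was retained at 44.8% in knockout library 12 and at 2.3 to 18.1% in the other 12 libraries, with no call. Among events with 10 reads in 2 or more libraries of every group, the widest range of group means was 41.5 points, for the Dnmt3b exon. An Mbd1 intron of 4300 nt came next at 21.4 points, with no call. The deposited test of read balance for that intron gave a p below 0.05 in 9 libraries. The widest of the other exons was 19.1 points, for the Mbd1 exon of 115 nt.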

How the data were processed

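Per the submitters' processing notes, reads were checked with FastQC, trimmed with Trimmomatic and handled on mm9; neither an aligner nor a counter is named in the sources used. The authors deposited expression as cRPKM, an RPKM corrected for mappable length, and splicing as percent spliced in with the reads behind each value. No value column was left unused. The reads behind cRPKM were estimated from the lowest nonzero values. In each library, 1 read was taken as percentile 1 of cRPKM times the length of the longest GENCODE M21 transcript. That length is not the mappable length, so these read numbers are approximate.

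Expression was tested as log2(cRPKM + 1) with limma 3.58.1 (R 4.3.3) in 1 fit of all 13 libraries with a trend in the prior, for genes with a group mean of at least 1. Splicing was tested on the log2 odds of inclusion, with 0.5 reads added to each side, for events with at least 10 reads. P-values were adjusted by Benjamini-Hochberg over all genes or events. Tables and figures used Python 3.11.15, pandas 2.3.3 and matplotlib 3.10.9. Both tests were run on simulated data with known changes, and the share of those changes recovered is not given here. Promoter windows came from RefSeq and exon sequences from GENCODE M21 transcripts matched by exon and intron lengths; no coordinates were converted between builds. Named were the 7 genes in every comparison, Khdrbs1, up to 4 genes of each pathway group with the smallest p (values for at most 2 called in each direction), the 4 profiles nearest to each called gene, and tested splicing events. Some genes that this rule names are not reported here. The members, lists and rules were chosen with earlier results of these data known.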

Additional observations from a re-analysis of the deposited data

Results flagged for a closer look

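The estimated knockout effect on Dnmt1 had opposite signs at the 2 ages, and neither was called. All 3 knockout libraries lay above both wild types at P1 and below both at P10. The margin at P10 was narrow, with knockout library 10 at 25.12 cRPKM and wild-type library 6 at 25.14. The P10 difference of -0.35 ran from -0.62 to -0.07 when 1 library was left out. The effect at P10 minus that at P1 was -0.83 on the log2 scale (SE 0.28, 95% interval -1.43 to -0.23). The interaction test gave an unadjusted p of 0.0109 and an adjusted p of 0.854 (limma), so the difference did not pass. The effect at P10 minus that at P1 ran from -1.10 to -0.55 when 1 library was left out and was -0.28 without the 5 libraries under 0.5 M reads. From junction reads it was -0.48 (adjusted p = 0.744).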

How the results depend on the processing

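Shares of all genes or events called were given above for the reported setting, junction reads and the prior that depends on reads. No share is given for the other settings, so their counts cannot be set beside one. The number of the 7 genes called at P30 against P10 was 2 as reported (14.7% of all genes) and 4 from junction reads (43.7%). It was 1 with a pseudocount of 5, with quantile normalization, with median centring and with a constant prior. With only the 2 groups fitted it was 3, where Dnmt1 was lost (adjusted p = 0.0915) and Dnmt3b (0.0486) and Mbd2 (0.0316) were gained. Without the 5 shallow libraries it stayed 2, with Dnmt1 lost (adjusted p = 0.189) and Mbd2 gained (0.0452). Leaving out 1 library gave 1 to 2. At P30 against P1 it was 2 as reported, 4 with only the 2 groups fitted, 4 without the 5 shallow libraries and 5 from junction reads. Between P1 and P10, junction reads gave 1 in wild type (0 as reported) and 2 in the knockout (1 as reported), and 0 in the knockout without the shallow libraries. For splicing at P30 against P10, 1 event as reported became 0 with at least 20 reads, with 1 read added, on PSI itself, at a mean PSI of 1 to 99, with only the 2 groups and without the shallow libraries. It became 2 with no minimum difference and 2 with the prior that depends on reads, and leaving out 1 library gave 0 to 1. At P30 against P1, 1 event became 2 with 1 read added, 2 with no minimum difference and 3 with that prior.

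Over 106 single results and 2371 alternative values, 28 calls were lost, 22 were gained and 0 called values changed sign, while 101 uncalled values did. The shallow-library and reads-dependent alternatives were chosen after seeing the data. The cause of these changes was not tested. No paired analysis was possible because the library numbers are unique and no 2 groups share one. Depth limits the cRPKM of Dnmt3b in all groups, of Uhrf1 at P30, and of Mbd1 and Mbd2 in the shallow libraries.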
